A study of Mus musculus with 6 samples.

Results

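Syt7 encodes synaptotagmin-7, a calcium sensor that triggers the fusion of lysosomes and other vesicles with the plasma membrane. It was described here together with 5 genes of the same machinery: Syt11, Snap23, Stx4a, Vamp7 and Anxa6. All 6 symbols were found among the 15528 genes of the count table, and all 6 had enough counts to be tested among 11208 genes. The set was chosen by measured values as well as by function: Syt7 was selected on its difference between the study's groups, and the other genes were added as its relatives and partners. The group differences of the 6 genes are therefore given as descriptions with their errors and without p-values.

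The cells were from mouse and are labelled lymphatic endothelial cells, the lining of lymphatic vessels; their poly(A) RNA was sequenced. The 3 control libraries and the 3 libraries of cells treated with red blood cells carry the same time label, 24 h. The series title concerns the traffic between the brain and the cervical lymph nodes after subarachnoid hemorrhage, and the comparison asks how transcripts in these cells differ when red blood cells are present. The strain, whether the cells were primary or a line, the dose of red blood cells and whether they were washed off are not stated in the labels. Nothing in the labels says that replicates were separate cultures, so SDs and p-values here rest on library-to-library spread that may be purely technical.

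Synaptotagmins are membrane proteins with tandem C2 domains, modules that in part of the family bind phospholipids when calcium rises. Fusion itself is driven by SNARE proteins: a vesicle SNARE such as Vamp7 zips together with target SNAREs such as Stx4a and Snap23 on the plasma membrane. In cells other than neurons this set is known for the exocytosis of lysosomes, including the patching of a torn plasma membrane, a process in which the calcium-binding annexins also take part. In endothelial cells related machinery releases Weibel-Palade bodies, the storage granules of von Willebrand factor and P-selectin.

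Total counts ranged from 17263359 to 18381419 per library. The labelled identity was only in part borne out by defining markers: 11 of 16 lymphatic markers and 9 of 16 pan-endothelial markers are listed, Prox1 and Lyve1 are not among the listed symbols, and Cdh5 and Kdr had 7 and 0 counts over the 3 control libraries, and Pdpn, Sox18, Stab2, Reln and Itga9 had at most 6. Nrp2 and Nr2f2 averaged 272 and 161 CPM there, a unit that divides counts by the library's total. The lymphatic markers summed to between 419 and 522 CPM in the controls, most of it from these genes. The 7 listed of 9 epithelial and mesothelial markers summed to between 658 and 738 CPM. Krt8 gave 448, Msln 187, Krt18 44.8 and Krt14 14.4 CPM. Cdh1 had only 0.659 CPM, Krt5 and Wt1 had 0 control counts, and Epcam and Upk3b are not listed. Both sums rest on few genes, so they do not settle the identity. Control replicate 2 stood apart. The chi-square per gene was 27.1 and 25.7 for its counts set against those of control replicates 1 and 3, but 1.96 for replicates 1 and 3 themselves, and it was at most 2.08 for any pair of treated libraries. In that library transcripts of long genes were low and those of short genes high relative to the other controls. With edgeR's quasi-likelihood test 164 of 11208 genes passed a Benjamini-Hochberg adjusted p of 0.05, 130 higher and 34 lower with red blood cells. Without control replicate 2 there were 473 higher and 426 lower, and with an offset for gene length 199 higher and 147 lower.

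Syt7 was high in the 3 treated libraries and low in the 3 controls. It had 169, 129.7 and 165 CPM in control replicates 1 to 3 and 399, 399 and 393 CPM in treated replicates 1 to 3. The groups did not overlap, and the lowest treated library was 2.33 times the highest control. The control libraries spread far more than the treated ones, with control replicate 2 the lowest. Their coefficient of variation was 13.9%, against 1.91% from counting alone, while that of the treated libraries was 0.861%, against 1.18% from counting. The mean went from 154 ± 21.5 to 397 ± 3.42 CPM (SD, n = 3 each), a 2.58-fold difference (95% interval 2.22 to 2.99; log2 fold change 1.36 ± 0.09 SE). Among the 130 genes called higher, 41 had a larger fold change than Syt7, and only 9 of these had a mean of at least 10 CPM.

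**Figure D1:**
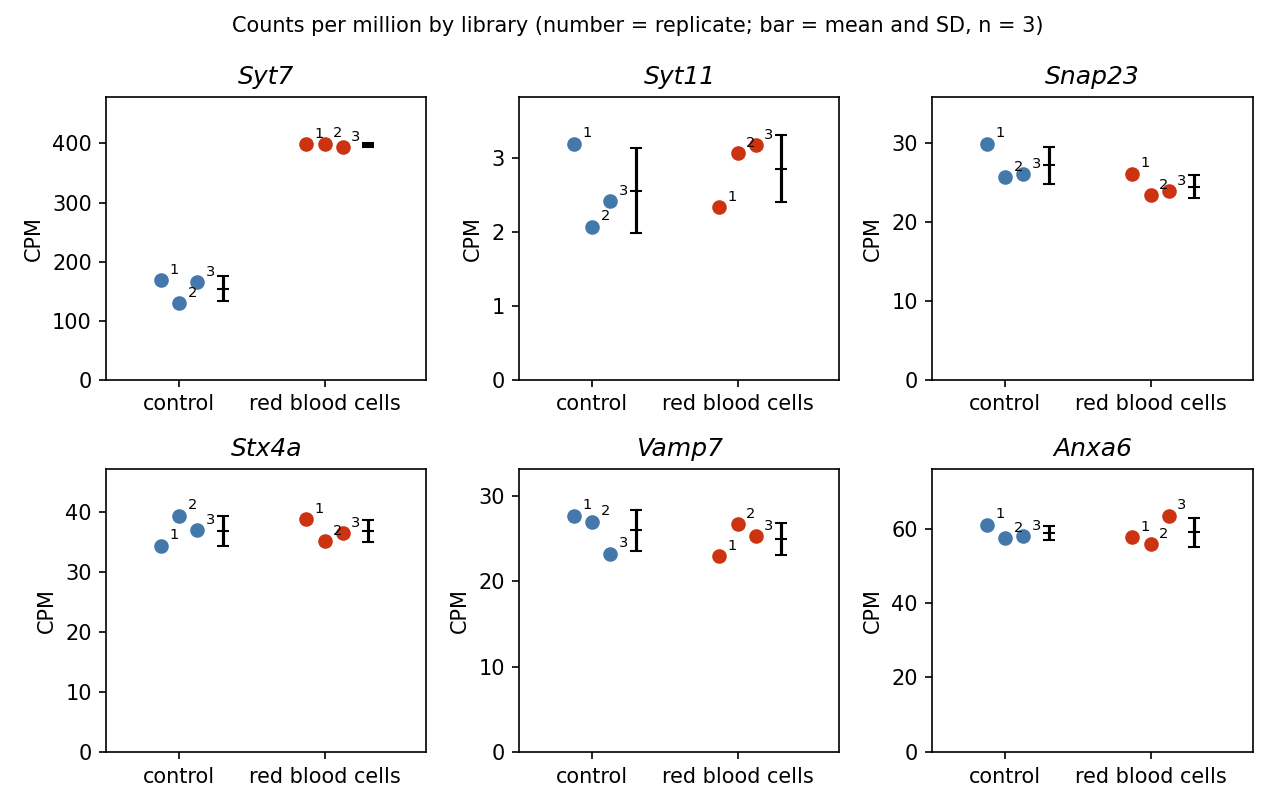
CPM of the 6 genes in each library, with a vertical axis from 0 in every panel; points are libraries numbered by replicate, and the bar beside them is the mean with its SD (n = 3). Syt7 lies between 129.7 and 169 CPM in the controls and between 393 and 399 CPM with red blood cells, and the libraries of the groups overlap for each of the 5 other genes.

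The low value of Syt7 in control replicate 2 went with the length of the gene. Its gene model, the merged exons used by the authors for scaling, is 11520 bases long. In control replicate 2 Syt7 was at -0.36 on the log2 scale relative to the mean of the other controls, and the median of the 1474 tested genes over 8000 bases was -0.33. Short genes went the other way, with a median of 0.32 for 542 genes under 1000 bases. Syt7 was 2.38-fold higher without control replicate 2 (log2 fold change 1.25 ± 0.03 SE) and 2.41-fold higher when each library's trend with gene length was taken out.

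**Figure D2:**
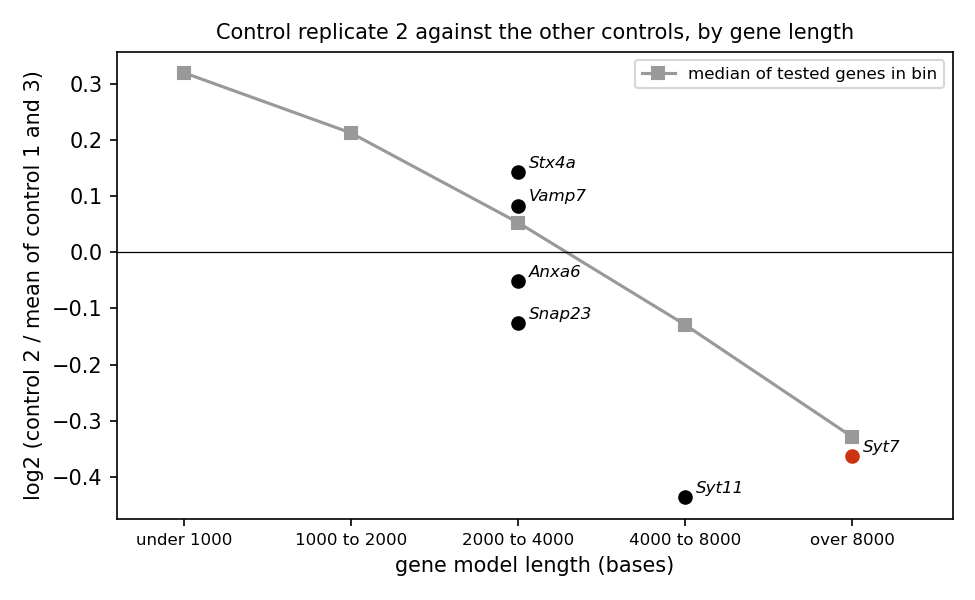
Log2 ratio of control replicate 2 to the mean of control replicates 1 and 3, by gene model length in bases. Grey squares are medians of the tested genes in a length class, and circles are the 6 genes; Syt7 at -0.36 lies near the median of -0.33 of the longest class.

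Syt11, the other synaptotagmin of the set, does not bind calcium, and is known for roles in endocytosis and phagocytosis. It was a rare transcript here, with 3.19, 2.07 and 2.41 CPM in the controls and 2.33, 3.06 and 3.17 CPM in the treated libraries. The groups overlapped over most of their range. The log2 fold change was 0.17 ± 0.20 SE (95% interval -0.29 to 0.62), and counting alone gave a variation of 14.9% per control library.

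Both target SNAREs of the plasma membrane overlapped between the groups. Snap23, the SNAP-25 homologue of cells that are not neurons, had 29.9, 25.6 and 26.1 CPM in the controls and 26.1, 23.4 and 23.9 CPM in the treated libraries. Its treated libraries lay toward the low end with a narrow overlap, at a fold of 0.90 (95% interval 0.79 to 1.03). Stx4a, which encodes the syntaxin that receives vesicles at the plasma membrane of many cell types, had 34.4, 39.3 and 36.9 CPM in the controls and 38.7, 35.1 and 36.5 CPM in the treated libraries. The groups covered the same range, and its interval ran from 0.89-fold to 1.12-fold.

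Vamp7, the vesicle SNARE of late endosomes and lysosomes, had 27.7, 27.0 and 23.3 CPM in the controls and 22.9, 26.7 and 25.3 CPM in the treated libraries. The libraries of both groups were intermixed, at a fold of 0.96 (95% interval 0.84 to 1.11). A pseudogene copy of Vamp7 is annotated, so its count is uncertain to the extent that reads were shared. Anxa6, an annexin that binds membranes in a calcium-dependent way and gathers at plasma membrane wounds, had 61.1, 57.4 and 58.1 CPM in the controls and 57.7, 55.9 and 63.5 CPM in the treated libraries. Its highest and lowest values were both from treated libraries, and the interval ran from 0.91-fold to 1.11-fold.

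Of the 6 genes 1, Syt7, was called higher and none was called lower, where 1.46% of all tested genes were called (1.16% higher, 0.303% lower); since the set was built around this difference, nothing is read from that count. The median log2 fold change of the 6 genes was 0.0014, against -0.0027 over all tested genes. The groups overlapped in 5 of the 6, and they did not overlap in 19.6% of all tested genes. The intervals of these 5 genes all ended below the lower bound of Syt7's, and the widest, that of Syt11, still allowed a rise of 1.54-fold or a fall to 0.82-fold. In a bulk sample fewer cells of a type and less RNA per cell cannot be told apart, which holds for each of these values.

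The order of the 6 genes changed with treatment only in the place of Syt7. Levels of different genes are compared as FPKM, which divide by gene length. In the controls Anxa6 was highest with 22.0 ± 0.722 FPKM (SD, n = 3), followed by Stx4a with 14.1 ± 0.951, Syt7 with 13.4 ± 1.86, Snap23 with 10.9 ± 0.941, Vamp7 with 10.1 ± 0.929 and Syt11 with 0.554 ± 0.124 FPKM. The libraries of Stx4a and Syt7, of Syt7 and Snap23 and of Snap23 and Vamp7 overlapped, so these neighbours were not separated beyond their spread. With red blood cells Syt7 led with 34.5 ± 0.297 FPKM, above Anxa6 with 22.1 ± 1.49, Stx4a with 14.0 ± 0.691, Snap23 with 9.80 ± 0.587, Vamp7 with 9.74 ± 0.736 and Syt11 with 0.618 ± 0.0980 FPKM. Snap23 and Vamp7 again overlapped. Among all tested genes Syt7 moved from rank 4818 to rank 2270 by FPKM, while Anxa6 stood at ranks 3373 and 3374.

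Syt7 transcript therefore stood in another proportion to each partner. The ratio of Syt7 to Snap23 in FPKM was 1.22, 1.10 and 1.37 in the controls and 3.31, 3.70 and 3.57 in the treated libraries. Against Stx4a it was 0.961 ± 0.189 and 2.46 ± 0.121 (SD, n = 3), against Vamp7 1.33 ± 0.255 and 3.55 ± 0.280, and against Anxa6 0.607 ± 0.0733 and 1.57 ± 0.115. These ratios shared the Syt7 values and are not independent of each other. FPKM divide by the whole gene model, and Syt7 has many annotated transcripts of unequal length, so the ratios compare libraries more safely than they compare genes.

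Syt7 had the highest level per length of its family in these cells, although in control replicate 2 it lay below Esyt2 (11.3 and 11.8 FPKM). Of 30 synaptotagmins and C2-domain relatives 20 are listed and only 7 had enough counts to be tested. Syt7 made up 34.7%, 30.4% and 35.5% of the summed FPKM of the listed genes in the controls and 57.2%, 57.8% and 56.3% in the treated libraries. The rest of the list summed to 26.4 ± 0.948 FPKM in the controls and 25.9 ± 0.591 FPKM in the treated libraries (SD, n = 3), while the total with Syt7 was 39.8 ± 2.61 and 60.4 ± 0.362 FPKM. Most of that rest was Esyt1 and Esyt2, extended synaptotagmins that tether the endoplasmic reticulum to the plasma membrane, with 11.3 ± 0.634 and 12.8 ± 0.900 FPKM in the controls and 11.5 ± 0.903 and 12.1 ± 0.401 FPKM in the treated libraries. Doc2g, a rare transcript with 69 counts over the controls and 48 over the treated libraries, went the other way from Syt7. Its groups did not overlap, at a log2 fold change of -0.54 ± 0.24 SE (edgeR adjusted p = 0.49). Sytl2 had 0.23 ± 0.15 SE with overlapping groups (edgeR adjusted p = 0.65), and neither gene was called. Syt1, the fast calcium sensor of synapses, had 0 counts over the controls and 1 over the treated libraries.

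**Figure D3:**
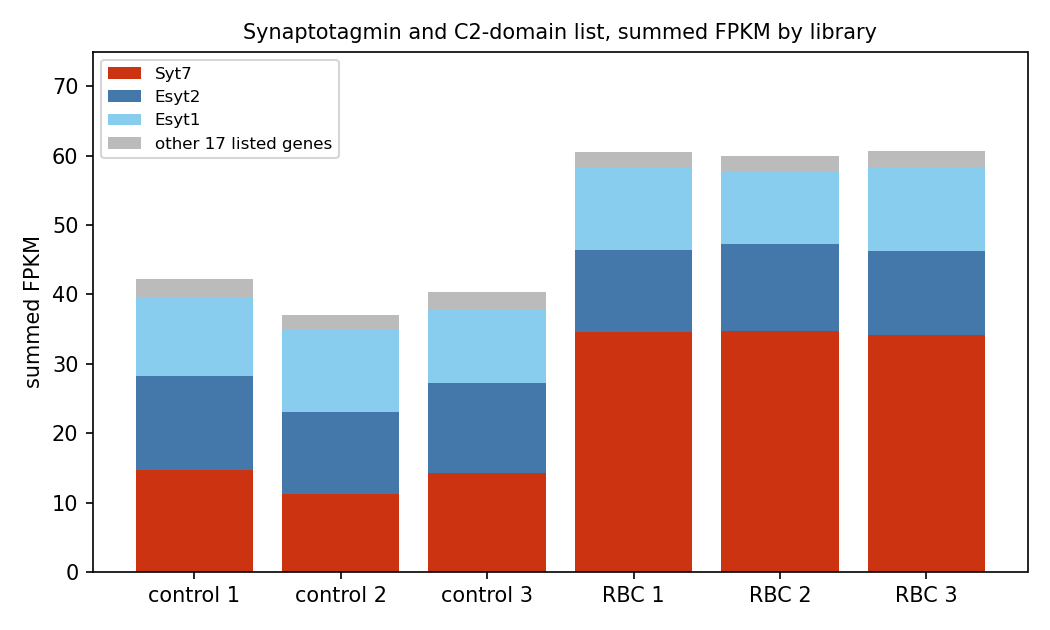
FPKM summed over the 20 listed synaptotagmins and C2-domain relatives, 1 bar per library, with Syt7, Esyt2, Esyt1 and the remaining 17 genes stacked. The red part, Syt7, fills 30.4% to 35.5% of a control bar and 56.3% to 57.8% of a treated bar, while the height of the other parts is nearly the same in all 6 libraries.

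The wider fusion machinery was followed in 10 lists of related genes, which hold 168 genes besides the 6; 151 of them are listed and 115 were tested. With edgeR's quasi-likelihood test 0 of the 115 were called at a Benjamini-Hochberg adjusted p of 0.05, where 1.46% of all tested genes were called. At an unadjusted p under 0.05 there were 17 (14.8%), against 9.99% of all tested genes. Limma voom called 0 of them (1.44% of all genes called), and DESeq2 called 2, Stx6 higher and S100a11 lower (2.11% of all genes called). The groups did not overlap in 24 of the 115 (20.9%), near the 19.6% of all tested genes. The median log2 fold change was -0.04 and 73 of the 115 (63.5%) had negative values, against 51.0% of all tested genes. Without control replicate 2 the median was -0.02 and 70 were negative. With the gene length offset the median was -0.05 and 82 were negative, where the median over all tested genes was -0.02. In the fit without control replicate 2, 14 of the 115 were called (12.2%, where 7.96% of all genes were), 5 higher and 9 lower. With all 6 libraries the gene length offset called 4 of the 115, all lower (3.09% of all genes called). The 5 were Anxa1, Ehd1, Stx6, Stxbp3 and Vamp5, with log2 fold changes from 0.11 (Ehd1) to 0.34 (Stx6), and the 9 were Capn2, Dysf, Ehd2, Esyt2, Exoc5, Plat, S100a10, S100a11 and S100a6, from -0.40 (Dysf) to -0.10 (S100a6).

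**Figure D4:**
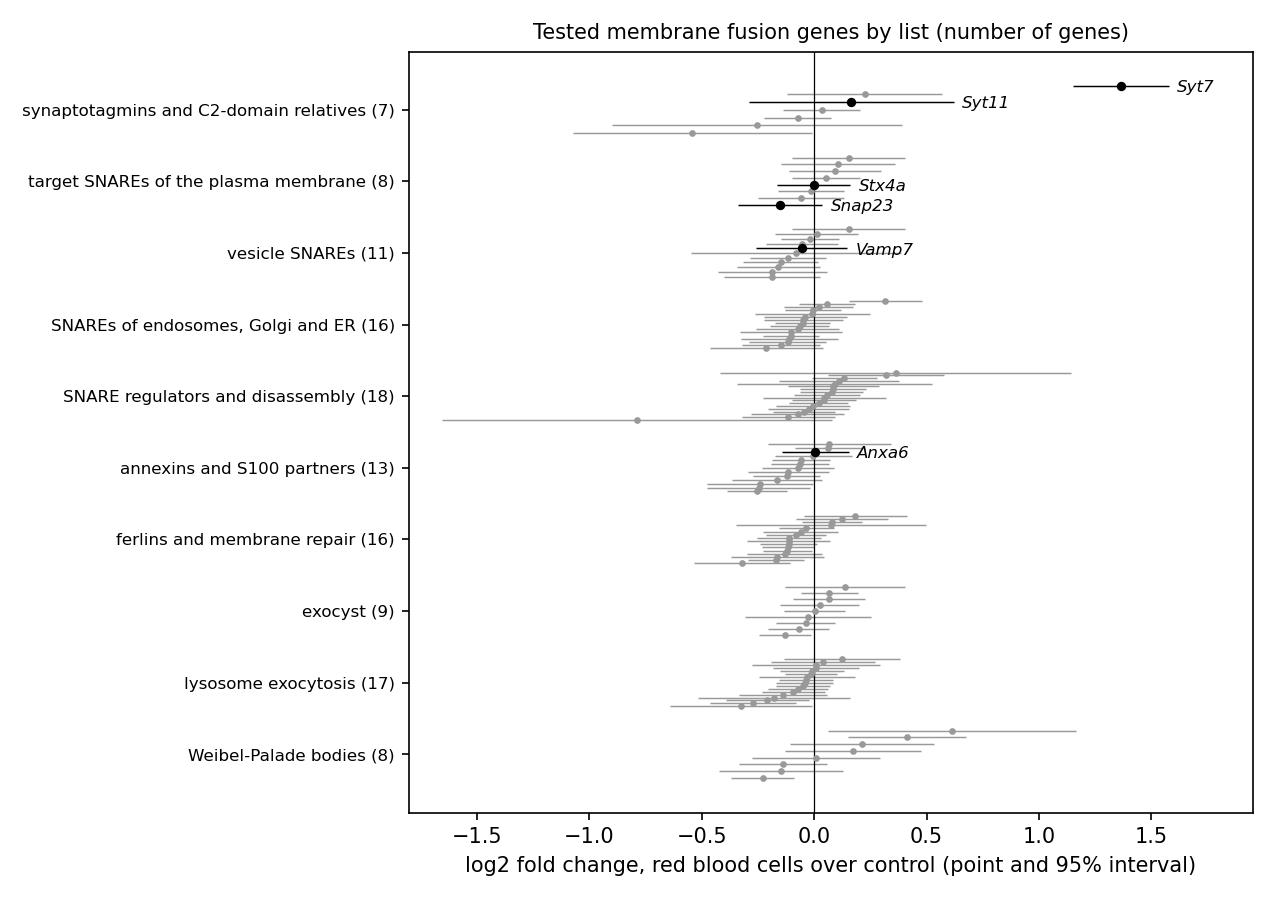
Log2 fold change of treated over control libraries for every tested gene of the 10 lists, 1 row per gene within a list and genes in more than 1 list drawn in each; points are estimates and lines are 95% intervals, with the 6 genes in black. Syt7 at 1.36 lies to the right of all other points, and most of the others lie within 0.3 of zero.

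For the 6 further plasma membrane SNAREs tested the log2 fold changes lay between -0.06 and 0.15. The most abundant of them was Snap47, a SNAP-25 relative found on internal membranes, with 28.6 ± 1.65 FPKM in the controls and 28.3 ± 0.981 FPKM in the treated libraries (SD, n = 3). Stx11, a syntaxin of granule release in immune cells, had a log2 fold change of 0.15 ± 0.11 SE and Stx3 one of 0.09 ± 0.09. Snap25, the neuronal homologue of Snap23, is not among the listed symbols. The 10 vesicle SNAREs other than Vamp7 had log2 fold changes between -0.19 and 0.15, 8 of them negative. The upper value is that of Vamp5, which was called higher at 0.27 without control replicate 2 (edgeR adjusted p = 0.017). Vamp8 and Vamp3, the vesicle SNAREs of late and recycling endosomes, had the most transcript, with 87.7 ± 14.6 and 76.7 ± 6.08 FPKM in the controls and 77.1 ± 2.65 and 73.9 ± 3.33 FPKM in the treated libraries. The difference in Vamp8 lay mostly in control replicate 2, with 80.8, 104.5 and 77.8 FPKM in the controls and 79.0, 78.1 and 74.0 FPKM in the treated libraries. Vamp2, Sec22a and Vamp4 had log2 fold changes of -0.15, -0.19 and -0.16 without a call.

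Among the 16 SNAREs of endosomes, Golgi and endoplasmic reticulum, 13 had negative fold changes and Stx6 stood out in the other direction. Stx6, a syntaxin of the trans-Golgi network and endosomes, had 7.65, 8.57 and 8.54 FPKM in the controls and 10.4, 10.8 and 9.64 FPKM in the treated libraries. The groups did not overlap, and the log2 fold change was 0.32 ± 0.07 SE (edgeR adjusted p = 0.089). It was called higher by DESeq2 (adjusted p = 0.037) and by edgeR without control replicate 2 (adjusted p = 9.5e-06). Stx7, of late endosomes, and Bet1, of the early secretory pathway, had log2 fold changes of -0.15 and -0.21. The abundant members Stx16 and Use1 had -0.06 and -0.10.

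Of 18 tested regulators that load and take apart SNARE complexes, 12 had positive and 6 negative fold changes (median 0.05, from -0.79 to 0.36), and edgeR called none with 6 libraries. Stxbp3, the Sec1/Munc18 protein that binds Stx4a, had 27.5, 30.0 and 26.7 FPKM in the controls and 29.7, 31.6 and 31.0 FPKM in the treated libraries. The highest control exceeded the lowest treated library; edgeR gave an adjusted p of 0.54 with 6 libraries and 0.0054 without control replicate 2. Nsf, the ATPase that recycles SNAREs, and its adaptor Napa had log2 fold changes of 0.04 and -0.05. Stxbp4 (0.32 ± 0.11 SE) and the rare Stxbp6 (-0.79 ± 0.38 SE) had the smallest p-values besides Stxbp3, and neither was called. The complexins Cplx2 and Cplx3 had at most 3 counts over a group.

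Of the 12 annexins and S100 partners tested besides Anxa6, 10 had negative fold changes, and edgeR called none with 6 libraries and no offset. S100a11, which binds annexins and takes part in membrane repair, had 1478, 1536 and 1427 FPKM in the controls and 1265, 1180.2 and 1273 FPKM in the treated libraries. The groups did not overlap, at a log2 fold change of -0.25 ± 0.06 SE (edgeR adjusted p = 0.091), and it was called lower by DESeq2 (adjusted p = 0.013) and by edgeR without control replicate 2 (adjusted p = 1.0e-07). S100a10, the partner of annexin A2, and S100a6 had log2 fold changes of -0.25 and -0.24. Their gene models are 650 and 719 bases long and control replicate 2 was their highest library. They were called lower without it, at -0.11 and -0.10, and with the gene length offset, at -0.22 and -0.21. Anxa2, the most abundant annexin with 877 ± 65.4 and 805 ± 13.0 FPKM, had -0.12. Anxa1 had 0.06 with 6 libraries and was called higher at 0.13 without control replicate 2.

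Among genes of membrane repair besides the annexins, 12 of 16 tested fold changes were negative, and edgeR called none with 6 libraries and no offset. The groups did not overlap in 8 of these 16 genes (50.0%), against 19.6% of all tested genes. Dysf, the calcium-binding ferlin known for resealing muscle membranes, had 2.45, 2.09 and 2.53 FPKM in the controls and 2.01, 1.81 and 1.82 FPKM in the treated libraries. All treated libraries lay below all controls, at a log2 fold change of -0.32 ± 0.09 SE (edgeR adjusted p = 0.24); it was called lower without control replicate 2 (-0.40) and with the gene length offset (-0.40). Ehd2, a caveolar ATPase, had 74.7 ± 3.43 and 66.3 ± 0.717 FPKM and was called lower in the same fits (-0.21 and -0.22). Capn2, a calcium-activated protease, had 100.4, 101 and 99.9 FPKM in the controls and 92.5, 92.5 and 92.4 FPKM in the treated libraries, and was called lower only without control replicate 2. Myof, a ferlin also found in endothelial cells, went the other way, mostly through control replicate 2. It had 82.1, 61.5 and 80.6 FPKM in the controls and 84.6, 85.5 and 84.0 FPKM in the treated libraries, and was not called in any fit.

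The exocyst, which tethers vesicles before fusion, had 9 tested subunits and relatives with log2 fold changes from -0.13 to 0.14. Exoc5 had 13.0, 13.3 and 12.9 FPKM in the controls and 11.7, 12.1 and 12.0 FPKM in the treated libraries, without overlap, and was called lower only without control replicate 2. Exoc7 and Exoc4, the members with the most transcript, had -0.04 and 0.14. The value of Exoc4 rested on control replicate 2, with 15.9, 11.1 and 15.2 FPKM in the controls and 15.5, 15.8 and 15.1 FPKM in the treated libraries.

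Of the 17 tested genes listed for lysosome exocytosis 13 had negative fold changes and none was called. Lamp1, the lysosomal membrane protein that appears on the cell surface after fusion, had 250.2 ± 13.3 and 238 ± 5.69 FPKM, and the calcium channel Mcoln1 had 19.6 ± 0.599 and 18.4 ± 0.811 FPKM. Rab27b, a GTPase of secretory lysosomes and granules, had 1.83, 1.96 and 1.82 FPKM in the controls and 1.54, 1.65 and 1.45 FPKM in the treated libraries. The groups did not overlap, but edgeR gave an adjusted p of 0.28. Rab11a and Rab3b had log2 fold changes of -0.21 and -0.33. Rab27a, the close relative of Rab27b, had 1 and 0 counts.

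Weibel-Palade body genes were few and went both ways. Of 13 genes 8 were tested, and Vwf, which defines these granules, had 8 counts over the controls and 15 over the treated libraries. Selp, the granule's P-selectin, had 1.28, 1.11 and 1.13 FPKM in the controls and 1.57, 1.60 and 1.50 FPKM in the treated libraries. All treated libraries were above all controls (log2 fold change 0.41 ± 0.12 SE; edgeR adjusted p = 0.21). Edn1, endothelin-1, had 0.61 ± 0.24 SE at under 1 FPKM. Plat, the tissue plasminogen activator, had 15.1 ± 0.770 and 12.9 ± 0.110 FPKM (SD, n = 3) with an edgeR adjusted p of 0.18, and was called lower without control replicate 2.

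The genes whose values followed Syt7 most closely came from other families. Likeness was measured as the root mean square difference of log2(CPM + 1), taken relative to the control mean, over the 6 libraries and among 8861 genes of at least 10 CPM. The nearest was C1s1, a complement protease, at 0.19 (6.32 ± 0.0889 to 15.5 ± 0.401 CPM; SD, n = 3). Prl2c2, a secreted prolactin relative, followed at 0.23 (148 ± 9.97 to 328 ± 6.12 CPM), then Cyp26b1, which degrades retinoic acid, at 0.24 (13.0 ± 1.25 to 27.8 ± 1.62 CPM). Stab1, a scavenger receptor, was also at 0.24 (30.9 ± 5.86 to 63.5 ± 0.504 CPM), with controls at 36.2, 24.6 and 31.8 CPM; in Stab1 and Cyp26b1, as in Syt7, control replicate 2 was the lowest library. Cxcl5, a neutrophil chemokine, came last of the 5 at 0.29. C1s1 and Prl2c2 have near-identical copies with which reads can be shared. With 3 libraries a group, likeness reflects mostly the size of the group difference.

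The libraries with high Syt7 were also those with more blood cell transcripts. The 11 listed of 12 erythroid markers summed to between 40.3 and 45.1 CPM in the controls and between 580 and 666 CPM in the treated libraries. The 14 listed of 16 leukocyte markers summed to between 49.6 and 54.9 and between 58.1 and 61.7 CPM; the pan-leukocyte gene Ptprc had 0 and 36 counts over the 3 libraries. Platelet markers, 6 listed of 9, summed to between 0.695 and 1.20 and between 1.33 and 1.86 CPM, with Pf4 at 0 and 1 counts. The rise of this sum lay in Ppbp, with 29 and 62 counts over the 3 libraries, which was not called. Itga2b had 22 and 20 counts and Treml1 2 and 1. Markers of neurons and neuroendocrine cells, in which Syt7 is well known, summed to at most 0.944 CPM in any library over 6 listed of 8. Syt7 itself differed by 243 CPM between the group means. The part of the added cells in that difference was not tested. In the reference annotation a long noncoding gene, Gm26859, overlaps Syt7 on the opposite strand, and an unclassified transcript model, AC124169.1, on the same strand, where no strand setting would part their reads. Neither is among the listed symbols, and which strand setting the counting used is not given.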

How the data were processed

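Per the labels' protocols, TRIzol was used for the RNA and a stranded mRNA kit for the libraries. The submitters' processing notes name the build GRCm39; no aligner, counting tool or annotation is named (not given in the sources used here). The authors deposited whole-number counts per gene symbol without normalization. They also deposited FPKM values, which equal the counts divided by gene model length and by the library's count sum (largest relative departure 3.4e-07 over 12251 genes), so both tables describe the same reads. Gene model lengths were computed from the 2 tables. Overlapping genes were looked up by name in an annotation of another build (GENCODE M21), without coordinates.

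Groups and replicate numbers came from the sample titles. The count test was the quasi-likelihood test of edgeR 4.0.16, run in R 4.3.3. Its filterByExpr (minimum count 10, minimum total 15) kept 11208 genes holding 99.96% of all counts, and TMM gave the scaling factors. The quasi-likelihood p-values were two-sided and adjusted by Benjamini-Hochberg over all tested genes, with calls made under 0.05. Standard errors are the log2 fold change divided by the root of the F statistic, and 95% intervals use the t distribution of the fit. The pipeline was tested on simulated counts. Counting errors cover the counting of reads only, as reads that carry no molecular identifier need not be separate molecules.

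The 6 genes and the gene lists were chosen with earlier results of these data known. The text names, from each list, called genes, up to 3 by unadjusted p and up to 2 by FPKM, and the 5 genes most like Syt7. Not every gene within these limits is named: Cd63, Chmp4b and Exoc1 were left out. Genes called only in other fits, Mcoln1, Myof and genes near 0 were named after their values were seen. Alternatives were RLE scaling, library size only, DESeq2 1.42.0, limma 3.58.1 voom, no filter, 1 CPM in 3 libraries, a replicate block, leaving out each library, CPM per kilobase with TMM scaling, and, chosen after seeing the data, a loess offset for gene length.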

Additional observations from a re-analysis of the deposited data

How the results depend on the processing

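As a description, since Syt7 was chosen on this difference, its log2 fold change over the 14 alternative fits ran from 1.25 without control replicate 2 to 1.43 without control replicate 1, and its mean FPKM moved by less than 1 SD with TMM scaling. The values of Syt11, Snap23, Stx4a, Vamp7 and Anxa6 moved by less than the SD between replicates in all 14. Counts over all genes changed when a library was left out: 60 to 473 genes were called higher and 2 to 426 lower, against 130 and 34 with 6 libraries. Only leaving out control replicate 2 raised them, to 473 and 426. Leaving out any other library lowered them, to between 60 and 107 higher and between 2 and 16 lower. Such fits also have only 2 libraries in 1 group. The gene length offset gave 199 higher and 147 lower, and DESeq2 gave 67 lower. Among the 115 related genes, leaving out 1 library gave 0 to 5 higher and 0 to 9 lower, DESeq2 1 higher and 1 lower, and the offset 4 lower. The cause of these shifts was not tested, apart from the trend of control replicate 2 with gene length. Deviations of same-numbered libraries correlated at -0.08, 0.03 and 0.12 over 8862 genes, and not every library correlated best with its own number. The labels state no pairing, and with 3 libraries a group these correlations cannot decide whether replicate numbers pair the samples. With a replicate block 13 genes were called lower, 0 of the 115, and Syt7 had 1.37. Depth limited Syt11 most, at 38 to 57 counts per library.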
